A study of Mus musculus with 4 samples.

Results

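Serpins are protease inhibitors that share 1 fold. Most of them offer a flexible reactive centre loop as bait, and a serine protease that cuts the loop is trapped in a covalent complex with the inhibitor. Some inhibit cysteine proteases instead, and others have lost inhibition and carry hormones or fold collagen. The family is divided into clades by sequence: clade A holds secreted inhibitors of the α1-antitrypsin and antichymotrypsin type, clade B holds intracellular serpins that protect cells from their own proteases, and the smaller clades hold regulators of clotting, fibrinolysis and complement. Saliva is rich in proteases, and SGs secrete several inhibitors of them.

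Expression of the Serpin family was examined in SGs of Myd88-/- mice, which lack the adaptor MyD88 of Toll-like and interleukin-1 receptors in every cell, and of Myd88+/+ mice. The labels give 2 arrays from Myd88-null and 2 from wild type animals, all female, of strain C57/BL6 and 10 weeks of age, with submandibular and sublingual glands as the tissue, whereas the study's text names submandibular glands (SMGs). Both genotypes were homozygous offspring of heterozygous parents. The legends of the study give more animals per genotype than the labels give arrays, and nothing in the labels says whether an array holds 1 animal or a pool, so p-values measure the spread between these arrays, which may be technical. Members were all genes whose symbol starts with Serpin in the array's own annotation, which gave 61 genes of 34844 on the array, read by 78 probes in 87 spots. Of these, 24 belong to clade A, 27 to clade B and 10 to clades C to I. The α1-antitrypsin gene Serpina1b has no probe that carries its name, and Agt, which encodes the clade A member angiotensinogen under another symbol, lies outside the rule.

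Each array was labelled with 1 dye, so that a brighter spot stands for more of its transcript. Levels are given as log2 signal relative to the 75th percentile of the same array, so a spot at 0 is as bright as that percentile. A difference is the mean of the arrays labelled Myd88-/- minus the mean of those labelled Myd88+/+, with its standard error (SE) from limma fitted over 22312 genes. A gene was tested where the scanner software called its probe well above background on both arrays with the same label, and the brightest such probe stood for the gene. Levels of different probes were not set against each other, because probes differ in brightness for the same amount of RNA. In bulk tissue, fewer cells of a type and less RNA per cell cannot be told apart.

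The arrays differed in what they could detect. Myd88+/+ array 1 had the most probes well above background (74.2% of 55681), followed by Myd88-/- array 2 with 68.4%, Myd88+/+ array 2 with 55.1% and Myd88-/- array 1 with 52.2%. The Myd88 probe read 0.35 higher (SE 0.11) on the arrays labelled Myd88-/- (adjusted p = 0.264, limma). Its relation to the deleted part of the gene is not given in the sources used here, so it does not check the labels. Markers of the submandibular acinus were measured on all arrays, at 8230, 8320, 5890 and 6310 in summed linear signal (in units of the 75th percentile, here and below in the order Myd88-/- 1, Myd88-/- 2, Myd88+/+ 1, Myd88+/+ 2). All 8 tested acinar genes were higher in the arrays labelled Myd88-/-, with a median of 0.33. Markers of some other cells also moved with the labels. Skeletal muscle markers summed to 3.15, 3.19, 29.7 and 169, with all 12 tested genes lower in the arrays labelled Myd88-/-. B cell markers summed to 3.38, 3.27, 17.5 and 10.2 (8 of 8 lower), T cell markers to 12.5, 12.2, 22.2 and 16.8 (9 of 9 lower), and lymph node stroma and vessel markers to 7.8, 6.88, 34 and 13.8 (6 of 7 lower). Adipocyte markers summed to 211, 384, 573 and 606 (11 of 11 lower), parotid gland markers to 1850, 655, 3150 and 2950 (6 of 6 lower), and fibroblast markers to 132, 138, 163 and 147 (6 of 8 lower). The part of these cells in the differences below was not tested. Of the liver list, which bears on plasma serpins, Alb, Apoa1, Apoh and Hpx did not pass on any array, and of the 6 tested genes 5 were higher in the arrays labelled Myd88-/- (median 0.71), with a summed signal of 15.3, 12.7, 11.1 and 9.57.

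Of the 61 Serpin genes, 32 were tested, and 30 of these were well above background on all 4 arrays. The remaining 29 were not tested, and are described here by their brightest probe. In 16 of them it was well above background on no array, among them Serpina12 (vaspin), Serpinb2 (plasminogen activator inhibitor 2) and Serpinf2 (α2-antiplasmin). In 7 the brightest probe passed on Myd88+/+ array 1 only, the array with the most detected probes, and these included Serpinc1 (antithrombin), Serpind1 (heparin cofactor II), Serpina6 (corticosteroid-binding globulin) and Serpina3c. A further 4, Serpina3a, Serpina3i, Serpina3j and Serpini2, passed on Myd88-/- array 2 and Myd88+/+ array 1, Serpina3m on Myd88-/- array 2 alone and Serpinb9e on Myd88-/- array 1 alone. Another probe passed on Myd88-/- array 2 for Serpina6 and on Myd88+/+ array 1 for Serpinb9e. Of the Serpinb3 and Serpinb9 groups, only Serpinb3c and Serpinb9 itself were tested.

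No Serpin gene passed the adjusted threshold of 0.05 with limma (smallest adjusted p = 0.194), and neither did any other gene (0.0% of those tested). At an unadjusted p under 0.05, 11 of 32 Serpin genes differed, 2 of them higher and 9 lower in the arrays labelled Myd88-/-, against 16.7% of all genes (9.82% higher, 6.83% lower). The methods' t-test gave 0 Serpin genes after adjustment, of 1 gene called, and 6 before it, against 13.2% of all genes. Limma with trended and robust moderation gave 1 Serpin gene after adjustment (Serpina3b), of 482 genes called. With limma after scaling by the median, 3 Serpin genes passed (Serpina1d, Serpina3b and Serpina3g), of 359 genes called. The 2 arrays of each label did not overlap for 19 Serpin genes, 6 higher and 13 lower, against 52.0% of all genes (33.2% higher, 18.7% lower). With 2 arrays against 2, the smallest p that an exact two-sided permutation test can give is 0.333. The median difference over the 32 genes was -0.13, compared to 0.06 over all genes. It was 0.01 without Myd88+/+ array 1. In size, the median difference was 0.26 for Serpin genes and 0.20 for all genes. A difference of at least 1 log2 unit was found in 5 of 32 Serpin genes (15.6%), all lower, against 4.79% of all genes. Of the 5, Serpina1d was not well above background in the arrays labelled Myd88-/-, so its difference has no measured size. Serpina1d is also 1 of the 9 and 1 of the 13 lower genes. It was tested only because it passed in the arrays labelled Myd88+/+, so its direction was fixed by the filter.

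**Figure D1:**
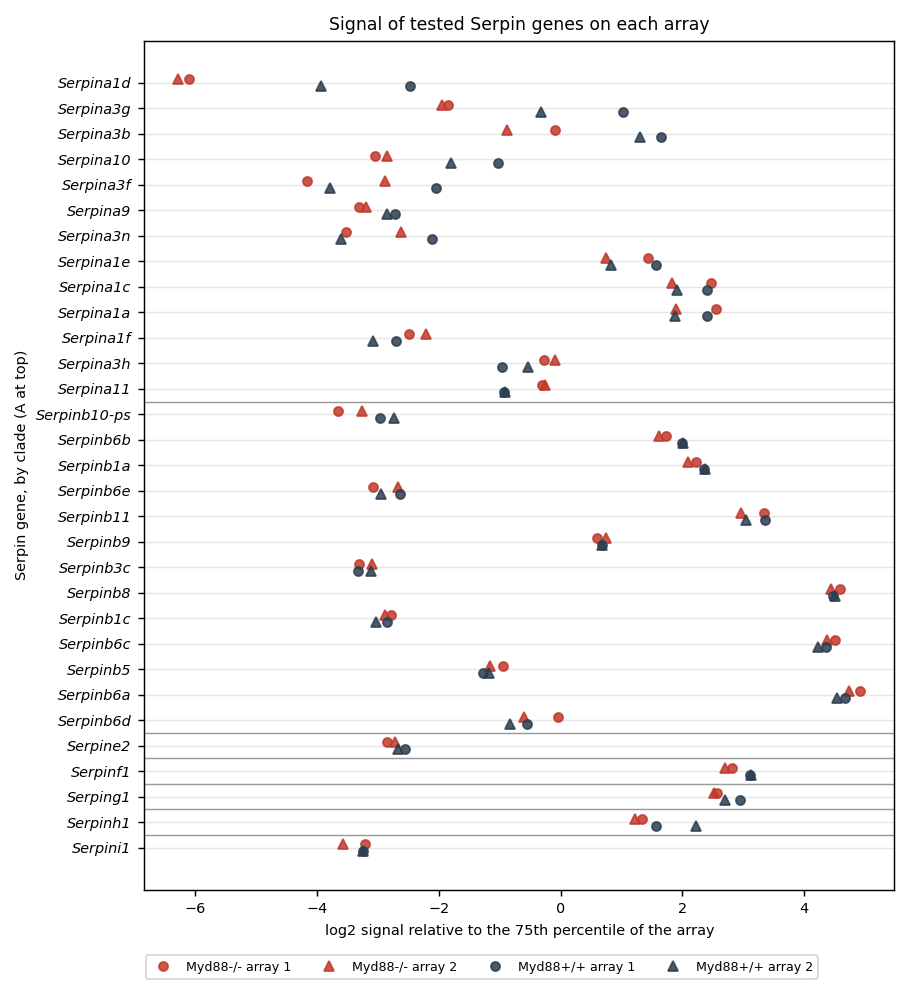
Log2 signal of the tested Serpin genes described here, relative to the 75th percentile of each array, with clades separated by grey lines. Each point is 1 array, and points are to be compared along a row only. Red (Myd88-/-) and dark (Myd88+/+) points are apart for Serpina3g, Serpina3b and Serpina10 and lie close together for most genes of clade B.

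The clades differed in the spread of their values. The 13 tested genes of clade A ranged from -2.99 to 0.64 in their difference (from -2.24 without the undetected values of Serpina1d), with a median size of 0.56, and 7 of them had an unadjusted p under 0.05, 2 higher and 5 lower. Clade A also held 4 of the 5 genes that differed by at least 1 log2 unit. Serpina1d is 1 of the 5 lower genes and 1 of these 4. It was tested only because it passed in the arrays labelled Myd88+/+, so its direction was fixed by the filter. The 13 tested genes of clade B ranged from -0.60 to 0.36, with a median size of 0.15, and 2 had an unadjusted p under 0.05, both lower. Clade A genes also had larger errors, with a median SE of 0.32 compared to 0.13 in clade B. The 6 tested genes of clades C to I were all lower in the arrays labelled Myd88-/-, with a median of -0.32. The median of clade A was -0.22 and that of clade B 0.01, but without Myd88+/+ array 1 the clade A median turned to 0.26. No test of the difference between clades was run.

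**Figure D2:**
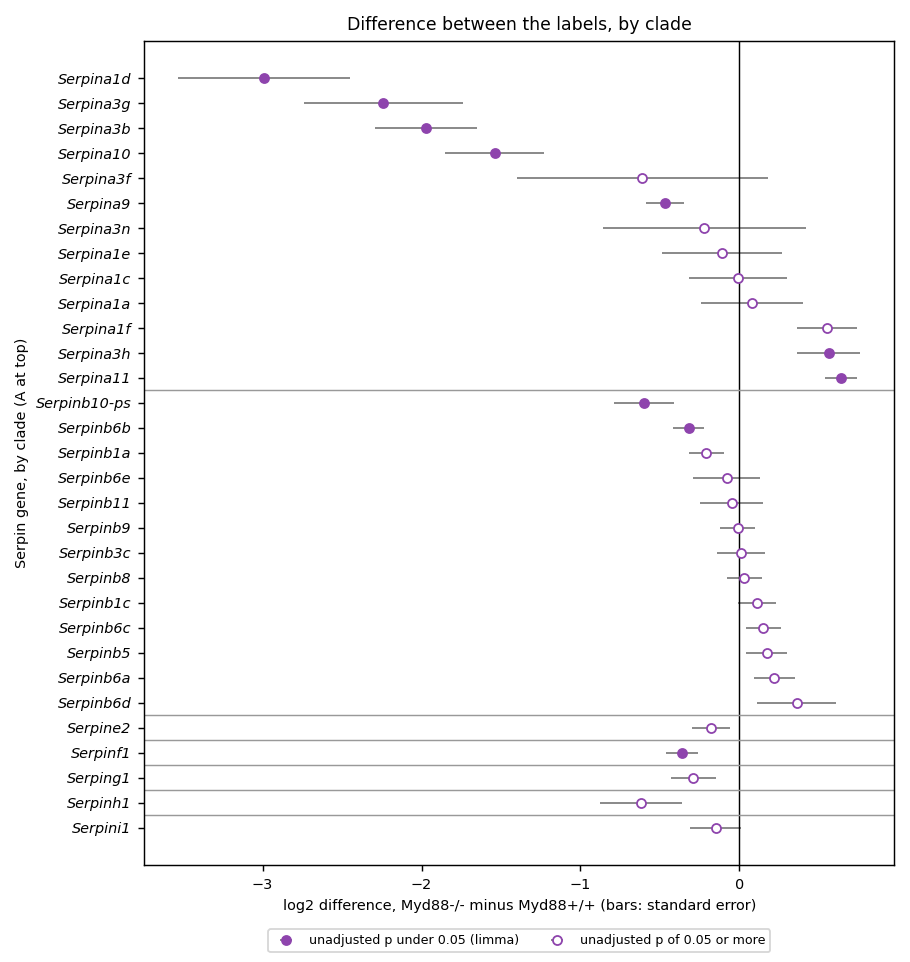
Difference in log2 signal, Myd88-/- minus Myd88+/+, for each tested Serpin gene described here, with its standard error from limma (2 arrays per label). Filled points mark an unadjusted p under 0.05. Clade A spans -2.99 (Serpina1d, not well above background in the arrays labelled Myd88-/-) to 0.64 and clade B -0.60 to 0.36, and the genes drawn for clades C to I lie left of 0.

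All 13 tested genes of clade A lie in the serpin cluster of chromosome 12, which holds 23 Serpin genes of the array. The cluster begins with Serpina10 and the Serpina1 copies and ends with the Serpina3 copies. Mouse Serpina1 was duplicated into several α1-antitrypsins, inhibitors of neutrophil elastase that the liver secretes into plasma, and the copies are known to differ mainly in the reactive centre loop. They also share long stretches of sequence, so that a probe may read several copies. The sequences of 3 probes are shown because probes of these copies gave different results, and those of Serpina1a and Serpina1e share bases. The first and the second are the probes of Serpina1a and Serpina1e that start at bases 1190 and 1165 of their transcripts (NCBI37/mm9, minus strand, chr12:105091979-105092038 and chr12:105185290-105185349), with capitals for the 17 bases that both share. The last, with no capitals, is the Serpina1d probe that starts at base 1045 (minus strand, chr12:105002930-105002989), which the annotation lists for Serpina1b as well.
Serpina1a: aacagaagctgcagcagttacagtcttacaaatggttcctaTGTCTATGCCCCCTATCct
Serpina1e: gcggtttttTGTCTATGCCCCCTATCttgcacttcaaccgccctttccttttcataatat
Serpina1d: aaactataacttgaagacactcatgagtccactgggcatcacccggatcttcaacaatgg

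The brightest probes of Serpina1a, Serpina1c and Serpina1e, which start at bases 1350, 1335 and 1283 of their transcripts, did not separate the labels. In the arrays labelled Myd88-/- Serpina1a read 2.55 and 1.90, against 2.40 and 1.88 in those labelled Myd88+/+, a difference of 0.08 (SE 0.32, adjusted p = 0.920). The groups overlapped, and array 1 was above array 2 in both labels. Serpina1c read 2.47 and 1.82 against 2.40 and 1.91, and Serpina1e 1.43 and 0.74 against 1.57 and 0.83. These 3 probes are not independent. The Serpina1a and Serpina1c probes match in 50 of the 51 bases by which they overlap, and the annotation lists the Serpina1c probe for Serpina1a, Serpina1b and Serpina1e as well.

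The second probes of Serpina1a and Serpina1e, whose sequences are given above, read lower values in the arrays labelled Myd88-/-. The Serpina1a probe at base 1190 read -3.72 and -3.56 against -2.68 and -3.23, a difference of -0.68 (SE 0.23, unadjusted p = 0.0475, adjusted p = 0.344). Its values in the arrays labelled Myd88-/- lay close to the dimmest detected signals of those arrays, at -3.97 and -4.03. The Serpina1e probe at base 1165 read -2.26 and -1.94 against -1.12 and -1.76, a difference of -0.66 (SE 0.28, unadjusted p = 0.082, adjusted p = 0.401). In neither probe did the groups overlap. Here all 31016 tested probes were fitted on their own, of which 14.3% had an unadjusted p under 0.05 and 0.0% an adjusted p under 0.05. The Serpina1d probe at base 1045 was not well above background in the arrays labelled Myd88-/-, at -6.11 and -6.28, and read -2.48 and -3.93 in those labelled Myd88+/+. The difference of -2.99 and its adjusted p of 0.203 (limma) rest on values given to undetected spots. The gene was tested only because it passed in the arrays labelled Myd88+/+. Its value on Myd88+/+ array 2 was close to the dimmest detected signals of the arrays labelled Myd88-/-, at -3.97 and -4.03, so no fold is given. With normexp background correction the difference was -0.31 (unadjusted p = 0.108). The other Serpina1d probe, at base 692, passed on Myd88+/+ array 1 alone. Serpina1f read -2.49 and -2.21 against -2.71 and -3.08, a difference of 0.55 (SE 0.19, unadjusted p = 0.0512), with the arrays labelled Myd88-/- above.

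**Figure D3:**
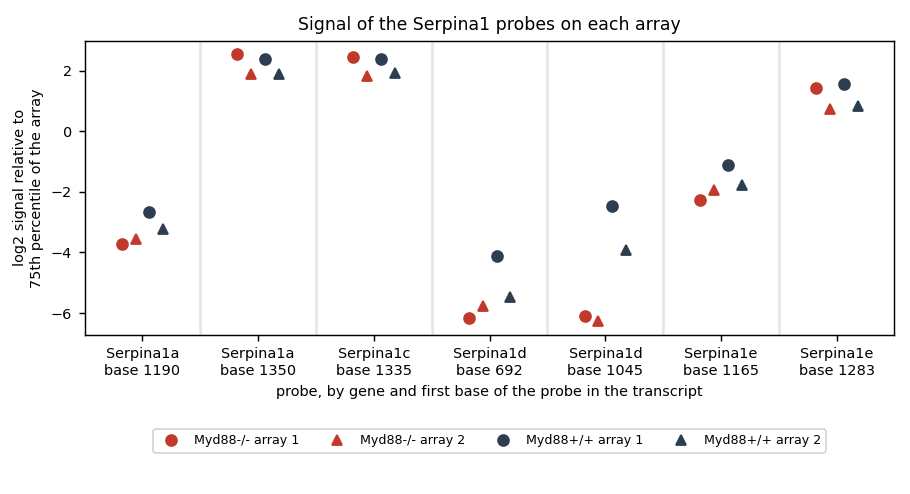
Log2 signal of the probes of Serpina1a, Serpina1c, Serpina1d and Serpina1e on each array, relative to the 75th percentile of that array. Each point is 1 array, and a column is 1 probe, named by gene and by the base of the transcript at which it starts. The probes at bases 1350, 1335 and 1283 show array 1 above array 2 in both labels, while the probes at bases 1190, 1165, 692 and 1045 have both Myd88+/+ points on top.

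The Serpina3 copies, duplicates of the antichymotrypsin gene, held the largest differences measured on all 4 arrays. Serpina3g encodes Spi2A, an intracellular inhibitor of lysosomal cysteine cathepsins that is known as a target of NF-κB, the transcription factor activated through MyD88. Serpina3g (chr12:105480045-105480104) read -1.85 and -1.95 in the arrays labelled Myd88-/-, against 1.02 and -0.33 in the others. Both arrays labelled Myd88-/- were lower, and the arrays labelled Myd88+/+ lay 1 log2 unit or more apart from each other. The difference was -2.24 (SE 0.50, unadjusted p = 0.0131, adjusted p = 0.214), or 4.74-fold, and it ranged from -2.92 to -1.57 with 1 array left out. Lower Serpina3g accompanied lower markers of B cells, T cells and lymph node, given above, with Myd88+/+ array 1 the highest in each. Serpina3b (chr12:105377694-105377753) read -0.10 and -0.88 against 1.64 and 1.31. The groups were further apart than the arrays of either group, with a difference of -1.97 (SE 0.32, unadjusted p = 0.00452, adjusted p = 0.199), or 3.91-fold, and a range of -2.36 to -1.58 with 1 array left out. Serpina3b passed the adjusted threshold under 2 of the 17 alternatives, with adjusted p between 0.03 and 0.539.

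Of the other tested Serpina3 copies, Serpina3h lay above in the arrays labelled Myd88-/-, and Serpina3n and Serpina3f lay below with overlap. Serpina3h read -0.27 and -0.10 against -0.97 and -0.53, a difference of 0.56 (SE 0.20, unadjusted p = 0.049, adjusted p = 0.299). Serpina3n, an inhibitor of granzyme B and a marker of acute inflammation, read -3.53 and -2.63 against -2.12 and -3.61. The groups overlapped, and the difference of -0.22 (SE 0.64, adjusted p = 0.892) became 0.23 without Myd88-/- array 1 and 0.52 without Myd88+/+ array 1. Serpina3f read -4.17 and -2.89 against -2.05 and -3.79, also with overlap, a difference of -0.61 (SE 0.79, adjusted p = 0.743), and was not well above background on Myd88-/- array 1. Its probe is listed for Serpina3h too. Its second probe was not well above background in the arrays labelled Myd88-/-, at -4.56 and -4.25, and read -2.31 and -3.85 in the others, so its difference has no measured size.

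Serpina3g was 1 of 3 Serpin genes, among 50 with a promoter in the RefSeq table (GRCm38.p6), to hold the NF-κB consensus on either strand between 250 bases before and 50 bases after the gene start. Of all 32851 promoters of this length, 1480 (4.51%) held it. The 3 of 50 are counted by gene and the 4.51% by promoter, and the shares were not tested against each other. The others were Serpina3i, which was not tested, and Serpinh1, with the match on the opposite strand. The 250 bases before the start of Serpina3g (plus strand, chr12:104235897-104236146) are shown because this gene had the largest difference measured on all arrays, with the match in capitals, 85 bases before the start. A match in letters is not a measured binding site, and promoters without one were not searched further.
Serpina3g promoter: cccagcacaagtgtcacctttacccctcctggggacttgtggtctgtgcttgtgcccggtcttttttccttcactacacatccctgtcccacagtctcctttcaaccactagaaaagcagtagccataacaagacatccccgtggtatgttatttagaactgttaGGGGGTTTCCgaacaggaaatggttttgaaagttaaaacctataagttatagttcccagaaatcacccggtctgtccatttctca

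The other tested genes of the cluster were Serpina10, Serpina11 and Serpina9. Serpina10, the protein Z-dependent inhibitor of clotting factor Xa (chr12:104854887-104854946), read -3.05 and -2.86 against -1.03 and -1.80. The groups did not overlap, and the difference was -1.54 (SE 0.31, unadjusted p = 0.00877, adjusted p = 0.204), or 2.9-fold. It was -0.67 with normexp background correction. The second Serpina10 probe, at base 861, read -6.20 and -3.60 against -3.04 and -5.50, with overlap. That probe was well above background on Myd88-/- array 2 and Myd88+/+ array 1 only, and was not tested. Serpina9, known as centerin from germinal centre B cells, read -3.32 and -3.20 against -2.72 and -2.86, a difference of -0.47 (SE 0.12, unadjusted p = 0.0173, adjusted p = 0.228). With normexp it was -0.06. The lower Serpina9 accompanied lower B cell markers, given above. Serpina11 was higher in the arrays labelled Myd88-/-, at -0.30 and -0.26 against -0.93 and -0.91. The arrays of each label differed by less than 0.05, and the difference was 0.64 (SE 0.10, unadjusted p = 0.00341, adjusted p = 0.194), or 1.56-fold. Its second probe, which shares 53 of 57 overlapping bases with the first, differed by 0.41 (SE 0.10, adjusted p = 0.289).

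**Figure D4:**
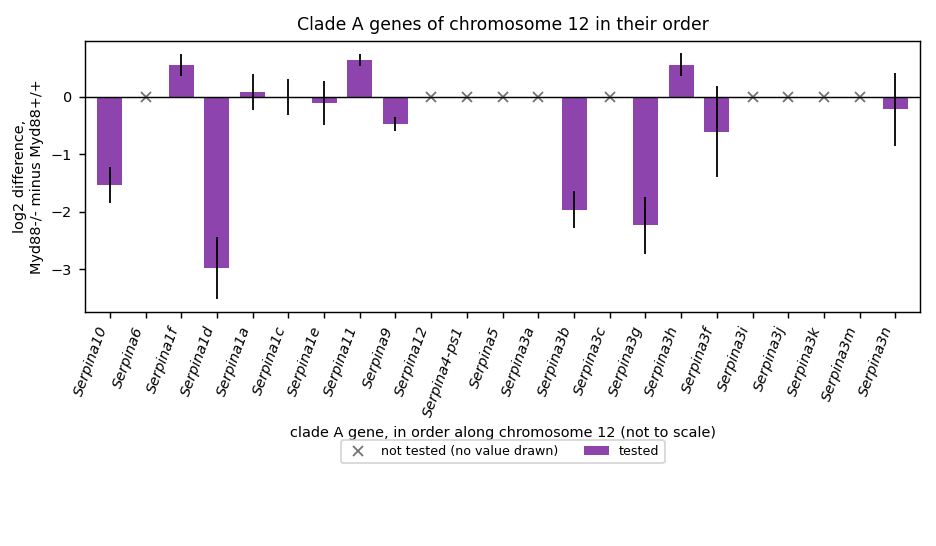
Difference in log2 signal, Myd88-/- minus Myd88+/+, of the clade A genes of chromosome 12 in the order of their probes, not to scale, with bars for the standard error from limma. Crosses mark genes that were not tested. Genes with values below -1 stand beside genes near or above 0 in both the Serpina1 and the Serpina3 stretch, and the bar of Serpina1d rests on probes that were not well above background in the arrays labelled Myd88-/-.

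Clade B serpins, which act inside cells, differed little. Serpinb6a, an inhibitor of cathepsin G, read 4.92 and 4.73 against 4.67 and 4.53, a difference of 0.22 (SE 0.13, adjusted p = 0.460). Serpinb6c read 4.50 and 4.38 against 4.35 and 4.22, and the annotated probes of the pair resemble each other over 39 of 42 overlapping bases. In both genes the arrays labelled Myd88-/- were above, by about the size of their error. Serpinb6b stood apart from them, at 1.73 and 1.62 against 1.99 and 2.01, a difference of -0.32 (SE 0.10, unadjusted p = 0.0397, adjusted p = 0.278), with both arrays labelled Myd88-/- below. Serpinb6d and Serpinb6e differed by 0.36 (SE 0.25) and -0.08 (SE 0.21), both with overlap.

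Inhibitors of leukocyte proteases in this clade were measured well. Serpinb1a, an inhibitor of neutrophil elastase, cathepsin G and proteinase 3, read 2.23 and 2.09 against 2.36 and 2.37, a difference of -0.21 (SE 0.11, adjusted p = 0.420). Serpinb9, the granzyme B inhibitor of lymphocytes, read 0.59 and 0.75 against 0.68 and 0.68, a difference of -0.01 (SE 0.11, adjusted p = 0.983). The Serpinb9 arrays overlapped, and cytotoxic lymphocyte markers summed to 6.03, 5.63, 7.19 and 6.13 (6 of 7 lower, median -0.57). Serpinb10-ps, named Serpinb10 (bomapin, of blood-forming cells) in the RefSeq table, read -3.66 and -3.27 against -2.97 and -2.74. Both arrays labelled Myd88-/- were below, by -0.60 (SE 0.19, unadjusted p = 0.0379, adjusted p = 0.273), but by -0.10 with normexp.

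The epithelial members of clade B differed by less than 0.20. Serpinb5, or maspin, of ducts and other epithelia, read -0.95 and -1.16 against -1.27 and -1.18, a difference of 0.17 (SE 0.13, adjusted p = 0.555) without overlap. Serpinb11 read 3.34 and 2.96 against 3.35 and 3.05, a difference of -0.05 (SE 0.20, adjusted p = 0.920), and array 1 was above array 2 in both labels. Serpinb8, an inhibitor of furin, differed by 0.03 (SE 0.11, adjusted p = 0.910). Serpinb1c and Serpinb3c differed by 0.11 (SE 0.12) and 0.01 (SE 0.15).

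The values of Serpine2 and Serping1, regulators of clotting, fibrinolysis and complement, lay below in the arrays labelled Myd88-/-. Serpine2, or protease nexin 1, an inhibitor of thrombin and urokinase, read -2.85 and -2.72 against -2.55 and -2.67, a difference of -0.18 (SE 0.12, adjusted p = 0.501) that turned to 0.08 with normexp. Serping1, the C1 inhibitor of complement, read 2.56 and 2.51 against 2.95 and 2.69, a difference of -0.29 (SE 0.14, adjusted p = 0.389), and its second probe differed by -0.23 (SE 0.21).

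The stromal serpins Serpinf1 and Serpinh1 do not inhibit proteases, and both read lower values in the arrays labelled Myd88-/-. Serpinf1, or pigment epithelium-derived factor, a secreted protein of stroma and fat that binds the lipase encoded by Pnpla2, read 2.81 and 2.70 against 3.11 and 3.12. The arrays did not overlap, with a difference of -0.36 (SE 0.10, unadjusted p = 0.0289, adjusted p = 0.256), and the second probe of Serpinf1 differed by -0.30 (SE 0.19). Serpinh1 encodes HSP47, the collagen chaperone of the endoplasmic reticulum. It read 1.34 and 1.22 against 1.57 and 2.23, a difference of -0.62 (SE 0.26, adjusted p = 0.357), and Myd88+/+ array 2, which also had the highest skeletal muscle markers, lay above the other arrays. Without that array the difference was -0.28. The last tested gene, Serpini1, encodes neuroserpin, a neuronal inhibitor of tissue-type plasminogen activator. It read -3.21 and -3.58 against -3.24 and -3.24, with overlap and a difference of -0.15 (SE 0.16, adjusted p = 0.693).

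**Figure D5:**
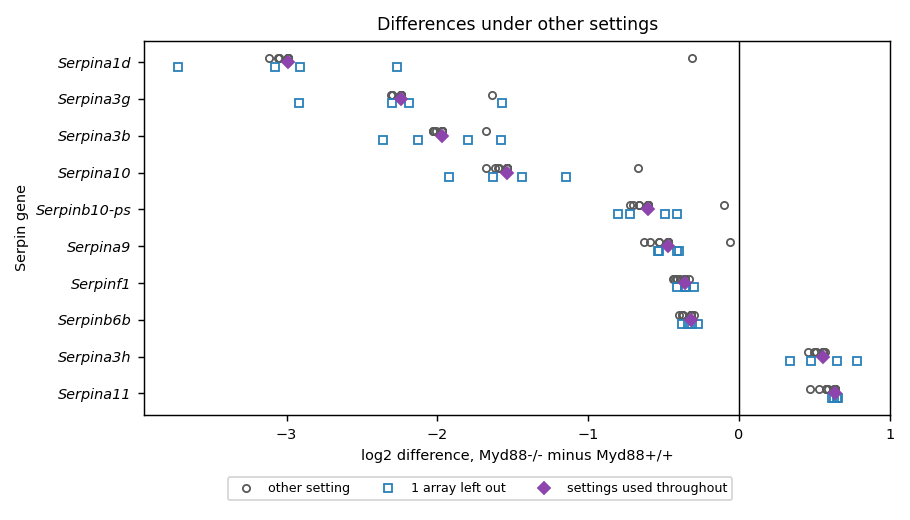
Difference in log2 signal, Myd88-/- minus Myd88+/+, of the Serpin genes described here with an unadjusted p under 0.05, under the settings used throughout, other settings of processing, and 1 array left out. All points of a gene keep 1 side of 0, but normexp background correction brings Serpina1d to -0.31, Serpina10 to -0.67, Serpinb10-ps to -0.10 and Serpina9 to -0.06. With 1 array left out a gene could not change side, because its groups did not overlap.

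The proteases and partners of serpins were read from the same fit, and none passed the adjusted threshold. Their counts at an unadjusted p under 0.05 are to be read against 9.82% of all genes higher and 6.83% lower. Of 27 tested serine proteases, 2 were higher and 2 lower at an unadjusted p under 0.05, with a median of 0.05. Plasma kallikrein (Klkb1) differed by 0.86 (SE 0.11) and factor IX (F9) by 0.68 (SE 0.10), while the protease of extracellular matrix Htra1 differed by -0.52 (SE 0.11) and C1s, a target of Serping1, by -0.35 (SE 0.12). Of 10 tested cysteine cathepsins, the class that holds the targets of Spi2A, 4 were lower and 0 higher at an unadjusted p under 0.05 (limma), with a median of -0.26. Not every member of the list is a known target. The 4 lower genes were Ctsw at -0.78 (SE 0.19), Ctsk at -0.57 (SE 0.12), Ctsc at -0.43 (SE 0.12) and Ctsb at -0.32 (SE 0.10). Ctsw is a cathepsin of T and natural killer cells, and T cell markers were lower in the same arrays.

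The counts in this paragraph are also at an unadjusted p under 0.05 (limma), against 9.82% of all genes higher and 6.83% lower. Of 17 tested cofactors and receptors of serpins, 2 were higher and 2 lower, with a median of 0.06. Vitronectin (Vtn), a plasma protein that binds serpins, differed by -0.78 (SE 0.14) and the Serpinf1 receptor Pnpla2, a lipase of adipocytes, by -0.38 (SE 0.13). Kdelr3, of the receptors that return HSP47 to the endoplasmic reticulum, differed by 0.47 (SE 0.14), and the heparan sulphate proteoglycan Sdc1 by 0.39 (SE 0.10). Of 14 tested genes of collagen maturation, in which HSP47 works, 1 was higher (P4hb, 0.44, SE 0.10) and 2 were lower (Crtap, -0.47, SE 0.12, and Pcolce, -0.45, SE 0.13), with a median of 0.09. Of 16 tested protease inhibitors outside the family, 2 were higher (Spink3, 0.78, SE 0.25, and Itih1, 0.77, SE 0.11) and 2 lower (Tfpi, -0.51, SE 0.16, and Itih5, -0.40, SE 0.13), with a median of -0.04.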

How the data were processed

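Gene expression was measured with 4 Agilent whole mouse genome arrays, 2 per label. The authors deposited the scanner output of Feature Extraction 10.7.3.1, whose processed signal is an intensity after background subtraction. Dim spots carry a surrogate value there, and arrays are not normalized to each other. The normexp alternative used the deposited mean and background intensities. A series table was not used, because its 4 value columns match no single sample's labels. All 4 arrays share 1 slide and 1 scan, so no slide block was fitted.

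From the log2 intensity of 59305 non-control spots the array's 75th percentile (237.2 to 320.9 in linear signal) was subtracted. Per array, 99 to 131 outlier spots were dropped, no spot was saturated (0), and repeated spots of 1 probe gave their mean. Well above background meant a share above 0.5 of a probe's spots. The comparison used limma 3.58.1 (lmFit, eBayes; R 4.3.3), and p-values were adjusted by Benjamini-Hochberg over all 22312 genes. The number of arrays limits the precision. The procedure was tested on simulated data.

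Named genes were Serpin genes with an unadjusted p under 0.05 or a difference of at least 1, a list chosen by role and, from each list of proteases and partners, genes with an unadjusted p under 0.05. Serpinb8 and other members outside the rule were added after their values were seen. The values of 1 tested member, which enters the counts and medians, are not reported here. Members and lists were chosen with earlier results of these data known. Alternatives were normexp (offset 50), 4 other scalings, 2 other filters on dim probes, outlier spots kept, averaging over a gene's probes, the methods' t-test, trended and robust moderation, a block for the replicate number, leaving out each array and, added after seeing the data, a crossed block and a fit of each probe. Of 61 Serpin symbols, 60 were in a RefSeq table (GRCm38.p6) and 1 matched a synonym.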

Additional observations from a re-analysis of the deposited data

How the results depend on the processing

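Of the values of single named Serpin genes under alternatives, 388 kept their direction and their side of the threshold, 15 turned direction and 4 passed the adjusted threshold. All 11 genes with an unadjusted p under 0.05 kept their direction under every alternative that could be fitted. For most alternatives this was fixed in advance. None of these genes had overlap between the labels, so leaving out 1 array could not turn them. The other tests and the blocks used the same values and leave a difference as it is. Over all genes, 79 passed the adjusted threshold with normexp, 359 with median scaling, 482 with trended and robust moderation and 1 with the methods' t-test, compared to 0. Of Serpin genes, 3 passed with median scaling and 1 with trended and robust moderation. Serpin genes higher at an unadjusted p under 0.05 numbered 1 with the 75th percentile over detected probes (7.41% of all genes). They numbered 0 with median scaling (0.896%), 1 with no filter (4.06%) and 1 with the t-test (9.0%). Those lower numbered 5 with median scaling (3.12% of all genes) and 5 with the t-test (4.15%). Serpin genes higher without overlap numbered 3 with quantile normalization, 1 with median scaling, 3 with cyclic loess and 18 with no filter, and those lower numbered 5 with median scaling. The shares of all genes without overlap under these settings are not given here. These counts therefore cannot be read as a result about Serpin genes.

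The median difference of Serpin genes was -0.03 with normexp, -0.23 with cyclic loess and 0.02 with no filter. That of clade B was -0.05 with quantile normalization, -0.05 with median scaling, -0.06 with cyclic loess and 0.36 with no filter, and that of clades C to I was -0.40, -0.38 and -0.40 under the same scalings and -0.38 with the 75th percentile over detected probes. With no filter, 61 Serpin genes enter, 16 of them well above background on no array. By gene, Serpine2 turned to 0.08 and Serpini1 to 0.03 with normexp, and Serpina1a to -0.30 with the mean of its probes. Otherwise the cause was not tested.

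With 1 array left out, Serpin genes at an unadjusted p under 0.05 numbered 1 to 2 higher and 5 to 6 lower, and those without overlap 7 to 12 higher and 13 to 18 lower. A group of 1 array has no spread of its own, so its value lies apart from the other group more easily. The shares of all genes in these fits are not given here. Neither set of counts can therefore be read as a result about Serpin genes. The medians with 1 array left out were -0.24 to 0.01 for Serpin genes, -0.54 to 0.26 for clade A, 0.03 to 0.11 for clade B and -0.37 to -0.26 for clades C to I. The differences ranged from -0.24 to 0.40 for Serpina1a, -0.34 to 0.31 for Serpina1c, -0.49 to 0.26 for Serpina1e, -0.97 to 0.52 for Serpina3n, -0.24 to 0.14 for Serpinb11, -0.09 to 0.07 for Serpinb9 and -0.33 to 0.03 for Serpini1.

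Deviations from the group means of same-numbered arrays correlated at -0.373 over 22312 genes. With the replicate number as a block, 0 genes passed the adjusted threshold, and 2 Serpin genes were higher and 6 lower at an unadjusted p under 0.05 (limma, all genes 10.8%). A crossed block gave 2 higher and 9 lower (all genes 18.6%).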

Other observations

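For 12 of the 32 tested Serpin genes, array 1 was above array 2 in both labels, against 20.8% of all genes, and for 4 it was below in both, against 21.3%. The 12 were Serpina1a, Serpina1c, Serpina1d, Serpina1e, Serpina3b, Serpina3g, Serpinb11, Serpinb1c, Serpinb6a, Serpinb6c, Serpinb6d and Serping1. The replicate numbers are not known to mark a shared litter, day or extraction.

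Agt, the clade A serpin angiotensinogen from which renin releases angiotensin I, read 4.53 and 4.68 in the arrays labelled Myd88-/-, against 3.93 and 4.14, a difference of 0.56 (SE 0.13, unadjusted p = 0.0155, adjusted p = 0.223, limma). The arrays did not overlap.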
